A study of Caenorhabditis elegans with 12 samples.

Results

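The autophagy genes examined here are the genes whose symbol begins with atg, epg or lgg and a number, together with bec-1, unc-51, vps-34, sqst-1 and hlh-30. The count table held 28 such genes, each with at least 10 counts summed over the 12 libraries, so the set is 28 of 45132 genes. The filter on low counts left 12850 genes, these 28 among them. The rule that chose the members used no measured change, but it was set with earlier results of these data known. mRNA was sequenced from whole Caenorhabditis elegans of the strain glp-4(bn2), collected on day 1 of adulthood, with 3 libraries in each of 4 groups. The groups were worms raised on control RNAi (L4440, the empty feeding vector), on L4440 with atp-2 RNAi, on prp-19 RNAi, and on prp-19 RNAi with atp-2 RNAi. Each group, the controls included, carried glp-4(bn2), a mutation that stops germline development at the restrictive temperature. The growth temperature is not given in the sources used here. PRP-19 is a component of the splicing machinery and ATP-2 the beta subunit of ATP synthase in mitochondria, and the design asks how both knockdowns change mRNA levels and splicing.

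Macroautophagy encloses cytoplasm in a double membrane, the autophagosome, which then fuses with lysosomes. The UNC-51 kinase complex starts the process, the VPS-34 lipid kinase complex marks the forming membrane, and lipid carriers enlarge it. A ubiquitin-like conjugation system then attaches ATG8 proteins, LGG-1 and LGG-2 in the worm, to the membrane, where they bind cargo receptors such as SQST-1. HLH-30, the worm counterpart of mammalian TFEB, is a transcription factor known for activating autophagy and lysosome genes. Transcript levels measure neither the number of autophagosomes nor their turnover.

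Library totals lay between 6731808 and 8802767 counts. Values below are CPM, counts relative to the TMM-adjusted library size. Differences were tested with edgeR's quasi-likelihood test over all 12850 genes, and calls were made where the Benjamini-Hochberg adjusted p lay under 0.05. atp-2 mRNA followed its label, with a log2 fold change of -2.60 (SE 0.0902) in the control libraries and -1.01 (SE 0.0857) in the prp-19-labelled ones. Without atp-2 RNAi, atp-2 mRNA was also lower in the prp-19-labelled libraries (log2 fold change -0.67, SE 0.085, adjusted p = 1.54e-06, edgeR). It was at 1620.6 ± 15.4 CPM in the control libraries and 1015.4 ± 146.2 CPM there (SD, n = 3 each). The part of this difference in the results was not tested. prp-19 mRNA went against its label: the control libraries held 26.5 ± 1.96 CPM and the prp-19-labelled libraries 54.4 ± 25.9 CPM (SD, n = 3 each). It was 27.8 ± 0.208 CPM with L4440 and atp-2 RNAi and 29.4 ± 11.4 CPM (SD, n = 3 each) in the libraries labelled with both RNAi clones. Directions drawn from the prp-19 label below are therefore those of the label. Replicates of the prp-19-labelled group stood furthest apart, and vitellogenins took 11.6 ± 5.53% (SD, n = 3) of its counts, against 23.5 ± 1.97% (SD, n = 3) in the control libraries. Intestine, muscle, pharynx, neuron and cuticle markers were present in every group, and several changed with the contrasts below. The summed level of 5 germline markers was 44.7 to 58.5 CPM in the control libraries and 67.5 to 69.6 CPM with L4440 and atp-2 RNAi. It was 167.2 to 198.5 CPM in the prp-19-labelled libraries and 153 to 170.7 CPM in those labelled with both. glh-1 held most of this sum, at 33.3 ± 6.47 CPM in the control and 143.9 ± 14.9 CPM in the prp-19-labelled libraries (SD, n = 3 each). pgl-1 was at 3.64 ± 0.165 and 4.37 ± 0.34 CPM in the same groups (SD, n = 3 each). The 4 oocyte markers summed to between 4.62 and 9.38 CPM over the groups, and at least 3 of 4 sperm markers were at 0 counts in each group. In these bulk samples, fewer cells of a type and less RNA per cell cannot be told apart.

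Together the 28 genes held 214856 counts, between 0.198% and 0.29% of a library, and lgg-1 supplied 23.3% of them. Per kilobase of exon in the control libraries, lgg-1, the GABARAP-type ATG8 gene, was at 863.1 ± 29.1 CPM per kb (SD, n = 3). Next came sqst-1, the p62-type cargo receptor, at 147.3 ± 3.29 CPM per kb (SD, n = 3), and then lgg-2, the LC3-type ATG8 gene. On this scale lgg-1 was 5.86 times as high as sqst-1 and 7.26 ± 0.124 times (SD, n = 3) as high as lgg-2. The following ranks held atg-18, a phosphoinositide-binding WIPI protein, at 52.7 ± 1.77 CPM per kb and bec-1, the Beclin homologue, at 44.1 ± 3.79 CPM per kb (SD, n = 3 each). These 5 members were each separated from the next by more than the SDs. Below them the order was mostly unresolved, since 17 of the 27 neighbouring pairs in the whole ranking overlapped within 1 SD. At the low end, atg-4.2 was at 5.88 ± 0.458, atg-16.1 at 5.18 ± 0.227 and atg-10 at 1.2 ± 0.722 CPM per kb (SD, n = 3 each). A scarce copy stood beside an abundant paralog in the ATG4 and ATG16 families: the protease atg-4.1 was at 37.8 ± 1.58 and atg-16.2 at 20.7 ± 1.57 CPM per kb (SD, n = 3 each). How reads that match both paralogs were counted is not given in the sources used here.

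**Figure D1:**
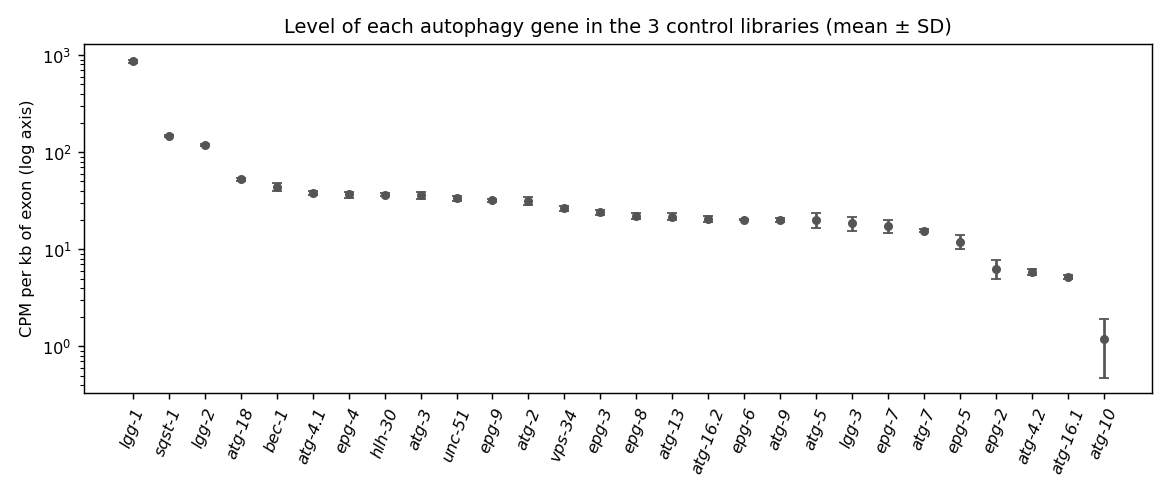
Level of each of the 28 autophagy genes in the 3 control libraries, as CPM per kilobase of exon on a log axis; points are means and bars are SD (n = 3). lgg-1 lies at 863.1 and atg-10 at 1.2 CPM per kb.

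The members are protein-coding genes spread over the 6 chromosomes, with 5 on I, 4 on II, 5 on III, 8 on IV, 3 on V and 3 on X. The longest transcript of a member has from 1 intron (lgg-1) to 22 introns (epg-5), with a median of 5.5. In WBcel235, a build named in the submitters' processing notes, lgg-1 lies on chromosome II, 6346960 to 6347719 on the minus strand, and lgg-2 on chromosome IV, 10934196 to 10935903 on the minus strand. sqst-1 lies on chromosome IV, 12034282 to 12036891 on the plus strand, and epg-3 on chromosome III, 12934717 to 12942288 on the plus strand. Exons of 6 members overlap a coding gene on the other strand: atg-10, atg-13, atg-4.1, epg-2, epg-5 and epg-8. Strand handling is not given in the sources used here, so the values of these 6 are uncertain to the extent that reads of the partner were counted with them. The overlap is longest for epg-2, a nematode cargo adaptor, where tpxl-1 spans 2728 bases of the locus, and for epg-5, where vps-33.2 spans 2244 bases.

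The effect of atp-2 RNAi on these transcripts was examined first in the control libraries. Of 28 members, 9 were called, 2 higher and 7 lower, which is 32.1% of them beside 34.1% of all genes tested (17% higher and 17.1% lower). The higher calls were sqst-1 and atg-7, the E1-like activating enzyme of the conjugation system. The lower calls were lgg-1, the E2-like enzyme atg-3, the initiation genes epg-7 and epg-9, the lipid kinase subunits bec-1 and epg-8, and atg-18. Changes were small: 0 members passed a 1.5-fold change with the call (1 at an unadjusted p under 0.05, 0 with DESeq2), against 18.6% of all genes. The median log2 fold change was -0.01 for the members and 0.03 for all genes. Markers of several tissues changed with this contrast: myo-3 of body muscle (0.84), myo-2 of the pharynx (0.97), col-19 (0.93) and dpy-7 (2.27) of the hypodermis and cuticle, and gld-1 (0.94) and glh-1 (0.49) of the germline were called higher. The value of dpy-7 rests on few reads, 145 counts over the 12 libraries. The intestine markers ges-1 (-0.62) and act-5 (-0.33) were called lower, and no neuron or oocyte marker was called. The part of all these tissues in the results was not tested.

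The split into higher and lower calls depended on scaling. Under library totals alone, without TMM, the median of all genes moved to 0.29 and that of the members to 0.27. Then 10 members were called higher and 0 lower, beside 41.9% of all genes called. With totals of the genes outside the vitellogenins, a scaling chosen after the data were seen, 4 were called higher and 4 lower. That scaling called 34% of all genes. Directions are therefore given relative to the bulk of genes, as TMM sets it.

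sqst-1 was at 327.4, 327.8 and 340.5 CPM in the control libraries and 467.2, 432.9 and 485.0 CPM after atp-2 RNAi. The groups did not overlap, and every treated library was above every control library. The log2 fold change was 0.48 (SE 0.11, adjusted p = 0.00273, edgeR). atg-7 was at 33.6, 33.0 and 30.9 CPM and rose to 40.4, 41 and 48.2 CPM, again without overlap (log2 fold change 0.41, SE 0.0943, adjusted p = 0.0023, edgeR). Both were called and higher under each of the alternatives run, the scalings among them.

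lgg-1 was at 587.3, 624.1 and 621.9 CPM in the control libraries and 507.0, 510.6 and 495.5 CPM after atp-2 RNAi. It fell by 0.28 on the log2 scale (SE 0.0664, adjusted p = 0.00293, edgeR), and the groups did not overlap. Its paralog lgg-2 was at 120.6, 123.9 and 126.3 CPM and at 128.1, 138.3 and 125.6 CPM. These groups overlapped, and the log2 fold change was 0.08 (95% interval -0.10 to 0.26). The ratio of lgg-1 to lgg-2 within a library, each per kilobase, does not depend on the scaling between libraries, and it went from 7.26 ± 0.124 to 5.67 ± 0.221 (SD, n = 3) with no overlap. The log2 fold change of lgg-1 itself was, with library totals alone, -0.01 (adjusted p = 0.956, edgeR).

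Among the genes that act before conjugation, bec-1 was at 53.3, 60.4 and 63.1 CPM in the control libraries and 44.0, 47.3 and 50.8 CPM after atp-2 RNAi. Each treated library was below each control, and bec-1 fell by 0.32 on the log2 scale (SE 0.0905, adjusted p = 0.0106, edgeR). The call was lost without control replicate 3 (log2 fold change -0.26, adjusted p = 0.0584), without replicate 1 of the treated group (-0.26, adjusted p = 0.0644) and with library totals alone (-0.04, adjusted p = 0.789). epg-8, the ATG14-like partner of BEC-1, fell by 0.40 (SE 0.095) and epg-7, which resembles mammalian FIP200, by 0.46 (SE 0.111). vps-34, the catalytic subunit, had a log2 fold change of 0.12 (95% interval -0.05 to 0.29), so 2 of 3 members of the lipid kinase complex were lower. epg-9, the ATG101 homologue, fell by 0.28 (SE 0.0901) and lost its call without control replicate 2 or without treated replicate 2 or 3 (adjusted p from 0.0525 to 0.0679, edgeR). unc-51 itself (-0.15, SE 0.125) and its partner atg-13 (-0.02, SE 0.109) were not called.

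Within the conjugation system, atg-3 moved opposite to atg-7. atg-3, the enzyme that passes ATG8 proteins to their lipid, was at 32.7, 38.7 and 35.5 CPM in the control libraries and 26.2, 29.2 and 26.6 CPM after atp-2 RNAi. Every treated library was lower, and atg-3 fell by 0.38 on the log2 scale (SE 0.0951, adjusted p = 0.00416, edgeR). The other 7 of 9 conjugation genes were not called. Of these, atg-10, the E2-like enzyme for ATG12, rested on few reads, with 3, 6 and 2 counts among controls and 13, 9 and 15 after atp-2 RNAi. Its log2 fold change was 1.25 (SE 0.486, adjusted p = 0.0536, edgeR). It was called without control replicate 2 (adjusted p = 0.0281), without treated replicate 2 (0.0394), or without replicate 3 of either prp-19-labelled group (0.0457 and 0.0455).

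**Figure D2:**
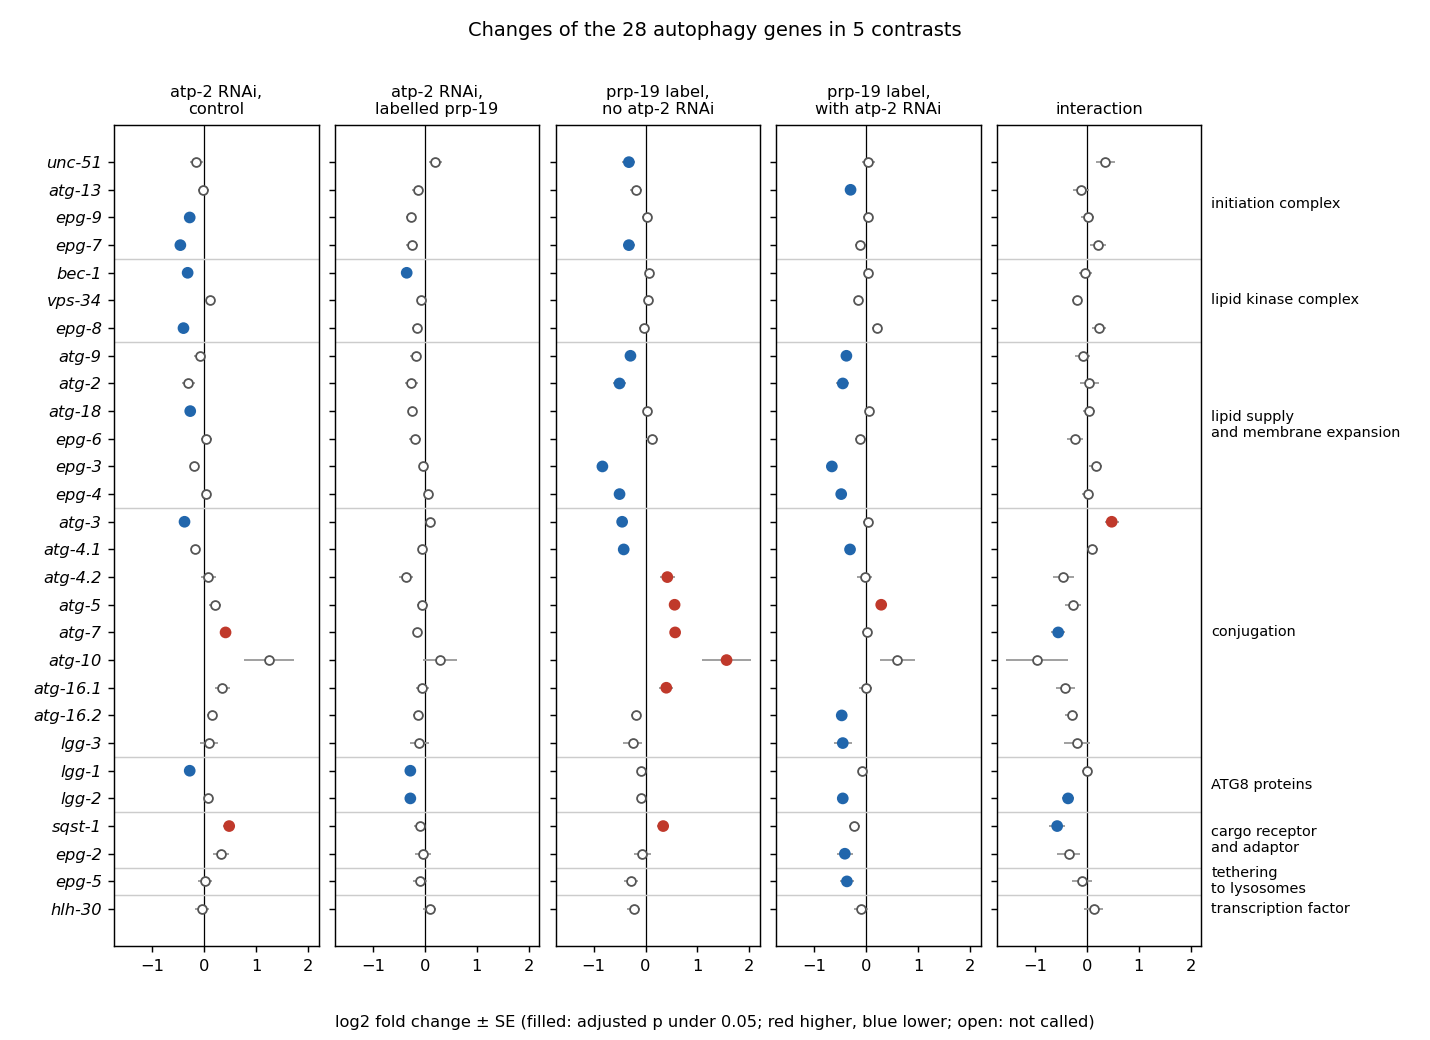
Log2 fold changes of the 28 autophagy genes (rows, grouped by role) in the 5 contrasts (panels); bars are SE, filled points are called by edgeR (red higher, blue lower) and open points are not. After atp-2 RNAi, 9 members were called in the control libraries and 3 in the prp-19-labelled libraries.

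The same comparison in the prp-19-labelled libraries gave 3 called members, 0 higher and 3 lower, which is 10.7% beside 9.77% of all genes (5.06% higher and 4.72% lower). At an unadjusted p under 0.05 edgeR gave 0 higher and 7 lower, and DESeq2 called 0 higher and 3 lower. The called members were both ATG8 genes, lgg-1 and lgg-2, and the lipid kinase subunit bec-1. The median was -0.12 for the members and 0 for all genes, and 0 members passed 1.5-fold (0 at an unadjusted p under 0.05, 0 with DESeq2) beside 3.95% of all genes. Library totals alone also gave 0 higher and 3 lower, beside 7.37% of all genes called. The count was 8 without replicate 3 of the prp-19-labelled libraries, where 22% of all genes were called. Leaving out replicate 1 of those labelled with both RNAi clones gave 0 members, beside 5.31% of all genes, and leaving out their replicate 3 gave 1, beside 6.17%. Of the markers, ifb-2 of the intestine (0.34) and dpy-7 (1.60) were called higher and cpg-2 of oocytes (-0.87) lower, and their part was not tested.

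lgg-1 was at 611.0, 578.9 and 547.2 CPM in the prp-19-labelled libraries and at 468.5, 490.5 and 471.9 CPM where atp-2 RNAi was added. The groups did not overlap, and lgg-1 fell by 0.28 (SE 0.0662, adjusted p = 0.0102, edgeR), with the call lost without replicate 1 of the libraries labelled with both (adjusted p = 0.0602). lgg-2 was at 121.6, 123.5 and 103.0 CPM and at 92.1, 95.7 and 99.7 CPM, and here it fell by 0.28 too (SE 0.0784, adjusted p = 0.0306, edgeR). Its groups did not overlap either, but the call of lgg-2 was lost without replicate 1 or 2 of the prp-19-labelled libraries or without any replicate of those labelled with both (adjusted p from 0.0563 to 0.138). bec-1 was at 67.3, 62.1 and 56.4 CPM and at 47.8, 51.4 and 47.0 CPM (log2 fold change -0.35, SE 0.0875, adjusted p = 0.0152, edgeR). No library overlapped, and its call was lost without replicate 1 of the prp-19-labelled libraries or without replicate 1 or 3 of those labelled with both (adjusted p from 0.0689 to 0.073). lgg-1 and bec-1 were called lower in both atp-2 comparisons, 2 of 9 and 2 of 3 called members. These comparisons share no library, but scaling and spread were estimated from all groups together. Fitted alone, the prp-19-labelled comparison called neither gene. Adjusted p was then 0.0976 for lgg-1 and 0.0672 for bec-1 (edgeR). The control comparison kept both calls when fitted alone but lost them with library totals alone (-0.01 and -0.04). Of all genes, 6.28% were called in both comparisons and 2.54% were lower in both, beside 7.14% of the members. The share of members rests on these 2 genes.

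**Figure D3:**
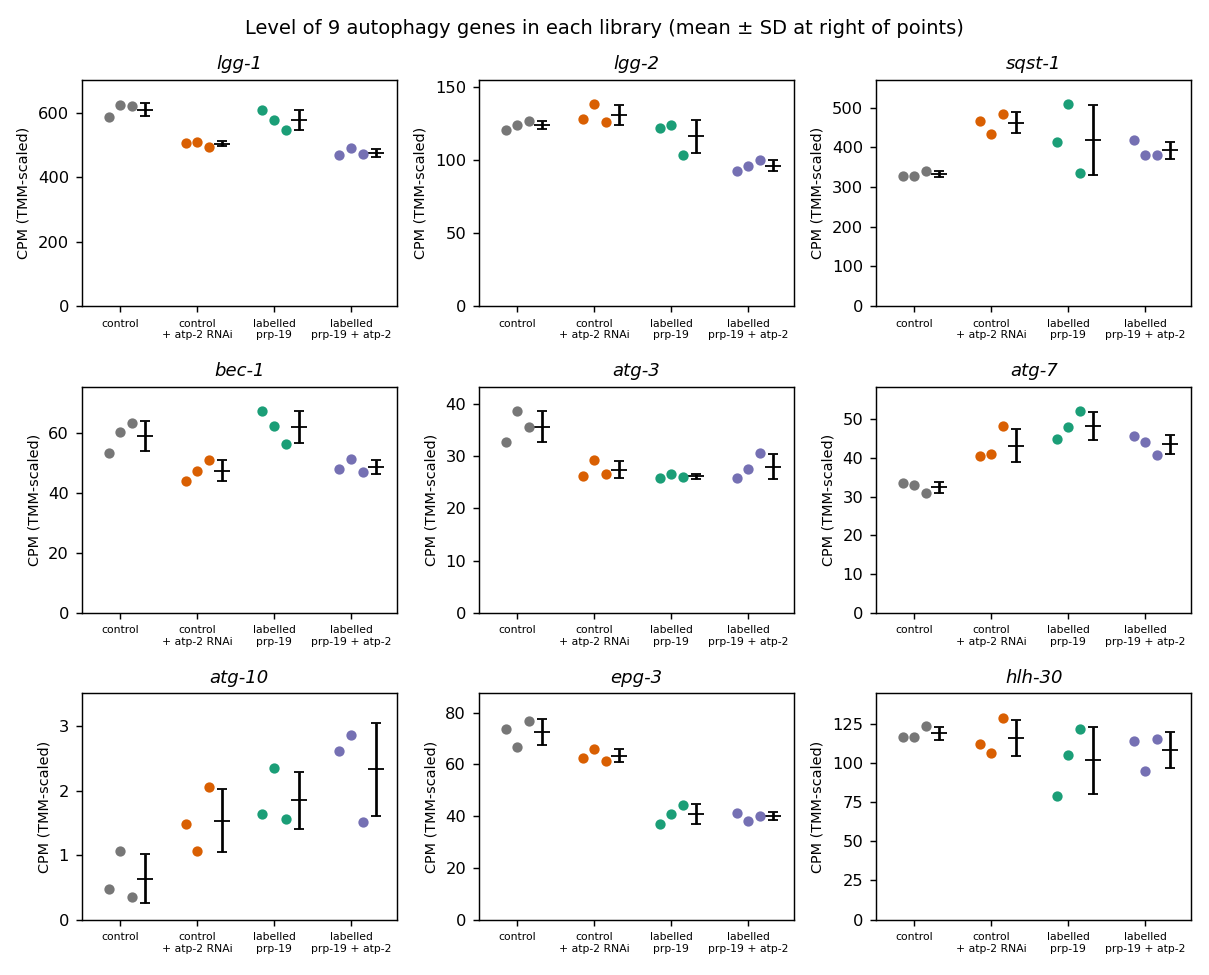
CPM of the 9 members shown in every library, by group (3 libraries each, points) with the mean ± SD (black bar). In the lgg-1 panel both groups with atp-2 RNAi, 468.5 to 510.6 CPM, lie below both groups without it, 547.2 to 624.1 CPM.

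The difference between the 2 atp-2 effects was tested as an interaction, the effect in the prp-19-labelled libraries minus that in the control libraries. It was called for 4 of 28 members, 14.3% beside 19.3% of all genes (10.1% higher and 9.14% lower), with 1 higher and 3 lower. The members were the activating enzyme atg-7, the cargo receptor sqst-1, the ATG8 gene lgg-2 and the transfer enzyme atg-3. The medians were -0.09 for the members and -0.03 for all genes, and 0 members passed 1.5-fold (0 at an unadjusted p under 0.05, 0 with DESeq2) beside 13.3%. Library totals alone, which moved the median of all genes to -0.38, gave 13 members lower and 0 higher, beside 31.3% of all genes called. The count was 2 without control replicate 2, when lgg-2 and atg-3 lost their calls, beside 15.5% of all genes. atp-2 mRNA itself had an interaction of 1.59 (SE 0.121, adjusted p = 3.33e-08, edgeR), with the smaller fall in the prp-19-labelled libraries. The part of this unequal fall in the results was not tested.

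sqst-1 was at 412.3, 509.3 and 334.9 CPM in the prp-19-labelled libraries and 417.5, 379.8 and 379.7 CPM with atp-2 RNAi added. The 2 groups overlapped, with the wider spread where atp-2 RNAi was absent, and the log2 fold change was -0.10 (95% interval -0.35 to 0.16). Without replicate 3 of the prp-19-labelled libraries it was -0.22 and called (adjusted p = 0.0339, edgeR). The interaction of sqst-1 was -0.57 (SE 0.155, adjusted p = 0.0156, edgeR). atg-7 was at 44.8, 47.9 and 52.1 CPM and at 45.6, 44.2 and 40.9 CPM. These groups overlapped too, with a log2 fold change of -0.15 (95% interval -0.35 to 0.05), and the interaction was -0.55 (SE 0.129, adjusted p = 0.00487, edgeR). Both interactions kept their call under each alternative run.

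For atg-3 the prp-19-labelled libraries held 25.7, 26.6 and 26.0 CPM, and those labelled with both held 25.8, 27.5 and 30.5 CPM. The groups overlapped, and the interaction was 0.48 (SE 0.134, adjusted p = 0.0164, edgeR). It was not called without control replicate 2 (0.42, adjusted p = 0.0518), without replicate 3 of the group labelled with both (0.41, adjusted p = 0.0553) or with library totals alone (0.13, adjusted p = 0.551). lgg-2 had an interaction of -0.36 (SE 0.111, adjusted p = 0.0296, edgeR). That call was lost when replicate 1 or replicate 2 of any group was left out (adjusted p from 0.0541 to 0.0901) and with DESeq2 (adjusted p = 0.0505).

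**Figure D4:**
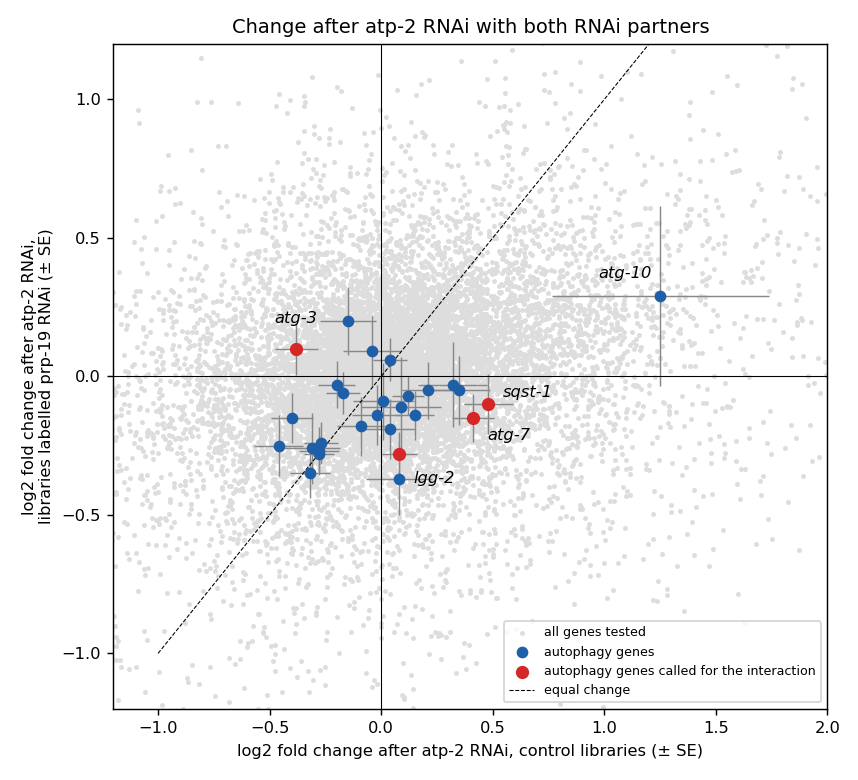
Log2 fold change after atp-2 RNAi on the control vector (x axis) and in the prp-19-labelled libraries (y axis) for the 28 autophagy genes (coloured points, bars are SE) over all genes tested (grey); the axes are limited to about the range of the members, so some grey points lie outside. Red marks the 4 members called for the interaction, of which sqst-1 lies at 0.48 and -0.10; the dashed line marks equal change.

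The effect of the prp-19 label was compared next, first without atp-2 RNAi. Here 14 of 28 members were called, 50% beside 58.5% of all genes (30% higher and 28.5% lower), with 6 higher and 8 lower. Genes of lipid supply and membrane expansion were lower in 4 of 6 cases (epg-3, epg-4, atg-2 and atg-9), and the conjugation system was split, with 5 of 9 higher and 2 of 9 lower. The largest decrease among the members was that of epg-3, the VMP1 homologue, and the largest increase that of atg-10. The median was -0.08 for the members and 0.06 for all genes, and these 2 passed 1.5-fold beside 39.9% of all genes. Markers changed with this contrast too, 4 of 5 of the germline and 3 of 4 of oocytes being called higher. So were 2 of 2 of the pharynx (median log2 fold change 1.1) and 3 of 3 of the hypodermis and cuticle (median 1.79). In the latter list dpy-7 (1.79) and rol-6 (1.80) rest on few reads, 145 and 245 counts over the 12 libraries. The abundant col-19 rose by 0.49 (SE 0.0749). Of 5 intestine markers 1 was higher and 2 lower, of 4 neuron markers 1 higher and 1 lower, and the part of these tissues in the results was not tested.

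Scaling moved the split most in this contrast. Library totals alone moved the median of all genes to 0.55 and that of the members to 0.41. Then 18 members were called higher and 1 lower, beside 69.8% of all genes called. Totals outside the vitellogenins gave 13 higher and 2 lower, with a median of all genes of 0.34 and 63.3% of all genes called. epg-3 was lower and called under both scalings, and atg-10, atg-7 and atg-5 were higher and called.

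epg-3, an endoplasmic reticulum membrane protein needed for autophagosome formation, was at 73.8, 66.9 and 76.7 CPM in the control libraries. It was at 36.8, 40.7 and 44.5 CPM in the prp-19-labelled libraries. The groups were far apart, and epg-3 fell by 0.83 on the log2 scale (SE 0.0847, adjusted p = 8.79e-08, edgeR). epg-4, the EI24 homologue of the same membrane, went from 47.2 ± 3.37 to 33.5 ± 0.572 CPM (SD, n = 3; log2 fold change -0.50, SE 0.0782). atg-2, a lipid transfer protein, went from 238.1 ± 23.4 to 167.9 ± 32.9 CPM (SD, n = 3; -0.50, SE 0.127), and atg-9, a transmembrane protein of autophagic vesicles, fell by 0.29 (SE 0.107). The WIPI genes atg-18 and epg-6 were not called, with log2 fold changes of 0.02 (SE 0.0768) and 0.12 (SE 0.111). Leaving out control replicate 3 or replicate 1 of the prp-19-labelled libraries ended the call of atg-9 (adjusted p = 0.0795 and 0.0825).

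The conjugation genes moved both ways. atg-7 rose to 44.8, 47.9 and 52.1 CPM from 33.6, 33.0 and 30.9 CPM (log2 fold change 0.57, SE 0.0933, adjusted p = 3.84e-05, edgeR). The libraries of atg-7 did not overlap, and those of atg-3, at 32.7, 38.7 and 35.5 CPM and 25.7, 26.6 and 26.0 CPM, did not overlap in the other direction. atg-3 fell by 0.45 (SE 0.0951, adjusted p = 0.000547, edgeR). atg-5, which joins ATG12 in the conjugate, went from 20.6 ± 3.61 to 30.4 ± 1.32 CPM (SD, n = 3; 0.56 on the log2 scale, SE 0.112). atg-10 held 3, 6 and 2 counts among controls and 14, 22 and 12 in the prp-19-labelled libraries, or 0.478, 1.07 and 0.353 and 1.64, 2.36 and 1.56 CPM. The groups did not overlap, and the log2 fold change of 1.56 (SE 0.464, adjusted p = 0.00767, edgeR) rests on these few reads.

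Paralogs of the conjugation system moved unequally. atg-4.1, a protease that trims and releases ATG8 proteins, fell by 0.42 (SE 0.0778), and its paralog atg-4.2 rose by 0.42 (SE 0.141). The ratio of atg-4.1 to atg-4.2 per kilobase went from 6.47 ± 0.734 to 3.6 ± 0.182 (SD, n = 3). atg-16.1, which anchors the ATG12 conjugate to the membrane, rose by 0.40 (SE 0.137), while its paralog atg-16.2 had a log2 fold change of -0.18 (95% interval -0.39 to 0.03). The ratio of atg-16.2 to atg-16.1 went from 4.0 ± 0.34 to 2.67 ± 0.102 (SD, n = 3), and libraries of neither ratio overlapped between the groups. The calls of atg-4.2 and atg-16.1 were lost with DESeq2 (adjusted p = 0.0703 and 0.081) and without control replicate 2 (adjusted p = 0.0688 and 0.0609). That of atg-16.1 was also lost without replicate 1 or 3 of the prp-19-labelled libraries (adjusted p = 0.0533 and 0.0596).

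The ATG8 genes were not called for the prp-19 label without atp-2 RNAi, with log2 fold changes of -0.08 (SE 0.0663) for lgg-1 and -0.09 (SE 0.0787) for lgg-2. sqst-1, at 327.4, 327.8 and 340.5 CPM in the control libraries, was at 412.3, 509.3 and 334.9 CPM in the prp-19-labelled ones. Replicate 3 of the latter lay within the control range, so these groups overlapped. The log2 fold change was 0.34 (SE 0.11, adjusted p = 0.015, edgeR), and it was 0.16 (adjusted p = 0.135) without replicate 2 of the prp-19-labelled libraries and 0.32 (adjusted p = 0.0507) without control replicate 2. The initiation genes epg-7 and unc-51 each fell by 0.32 (SE 0.11 and 0.125). The call of epg-7 was lost without control replicate 1 or 3 or replicate 1 of the prp-19-labelled libraries (adjusted p from 0.0515 to 0.101). That of unc-51 was lost without control replicate 1 or 3, replicate 1 or 2 of the prp-19-labelled libraries, or replicate 2 of those labelled with both (adjusted p from 0.0506 to 0.119).

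Where both groups had atp-2 RNAi, the prp-19 label gave 12 called members of 28, 42.9% beside 53% of all genes (26.5% higher and 26.5% lower). Of these, 1 was higher and 11 lower, and DESeq2 called 0 higher and 10 lower (2 higher at an unadjusted p under 0.05 with edgeR). The split under library totals alone was 2 higher and 5 lower, beside 51.4% of all genes called. The medians then were 0.02 for the members and 0.16 for all genes. As tested, the medians were -0.11 and 0.03. A single member, epg-3, passed 1.5-fold, beside 33.8% of all genes. Of 5 germline markers, gld-1 (2.13) and glh-1 (1.42) were called higher, and the other 3 were not called, pgl-1 among them at -0.25. The intestine markers elt-2 (0.61) and ifb-2 (0.64) were called higher and ges-1 (-0.48) lower. In the remaining lists tnt-4 of the pharynx, dpy-7 and puf-3 of oocytes were called higher and col-19 and rab-3 of neurons lower. The part of these tissues was not tested. atp-2 mRNA itself differed in this contrast (log2 fold change 0.92, SE 0.0863). It was at 267 ± 16.3 CPM with L4440 and atp-2 RNAi and 504.8 ± 7.45 CPM in the libraries labelled with both (SD, n = 3 each). The part of that difference was not tested either.

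epg-3 was at 62.4, 66.1 and 61.3 CPM with L4440 and atp-2 RNAi and at 41.3, 38.2 and 40.2 CPM in the libraries labelled with both RNAi clones. No library overlapped, and epg-3 fell by 0.66 (SE 0.0837, adjusted p = 1.67e-06, edgeR). lgg-2 was at 128.1, 138.3 and 125.6 CPM and at 92.1, 95.7 and 99.7 CPM, also without overlap. It fell by 0.45 (SE 0.0783, adjusted p = 8.32e-05, edgeR), whereas lgg-1 had a log2 fold change of -0.08 (95% interval -0.23 to 0.07). The lgg-1 to lgg-2 ratio was 7.31 ± 0.318 (SD, n = 3) in the libraries labelled with both and 5.67 ± 0.221 (SD, n = 3) in those with L4440 and atp-2 RNAi, without overlap. sqst-1 was not called here (-0.23, SE 0.109, adjusted p = 0.082, edgeR). It was called without replicate 2 or 3 of the prp-19-labelled libraries (adjusted p = 0.0206 and 0.0037), which enter this contrast through the estimate of spread. Keeping all genes, low counts included, also gave a call (-0.25, adjusted p = 0.00853), as did a fit of the 6 libraries compared alone (-0.24, adjusted p = 0.000143).

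epg-4 (-0.48, SE 0.0757), atg-2 (-0.45, SE 0.128) and atg-9 (-0.38, SE 0.106) fell here as well, so the same 4 of 6 genes of lipid supply and membrane expansion were lower with and without atp-2 RNAi. Over all roles, 6 members were called for the prp-19 label in both settings, 6 of 14 and 6 of 12. The comparisons share no library, but the spread was estimated from all 12. These 6 are 21.4% of the members, beside 40.6% of all genes called in both settings and 38.8% called in the same direction. The 6 were epg-3, epg-4, atg-2, atg-9 and atg-4.1, lower in both, and atg-5, higher in both. Scaled by library totals alone, atg-4.1 (0.07), atg-9 (0.18), epg-4 (-0.01) and atg-2 (-0.03) were not called without atp-2 RNAi, and atg-4.1 (-0.17) and atg-9 (-0.24) were not called with it.

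In the same contrast atg-16.2 went from 43.3 ± 1.45 to 31.2 ± 0.642 CPM (SD, n = 3; -0.47, SE 0.0871), and the ratio of atg-16.2 to atg-16.1 from 3.47 ± 0.239 to 2.56 ± 0.467 (SD, n = 3). lgg-3, the ATG12 homologue, fell by 0.45 (SE 0.174), epg-2 by 0.41 (SE 0.149) and epg-5, which tethers autophagosomes to lysosomes, by 0.37 (SE 0.137). atg-4.1 fell by 0.31 (SE 0.0769) and atg-13 by 0.30 (SE 0.107), and atg-5 rose by 0.29 (SE 0.106). The calls of lgg-3, epg-2, epg-5, atg-13 and atg-5 were each lost when any of several libraries of these 2 groups was left out. For lgg-3 (adjusted p from 0.0736 to 0.159) and epg-5 (0.0542 to 0.116) the libraries were replicates 1 and 3 with L4440 and atp-2 RNAi and replicates 1 and 2 labelled with both. They were replicates 2 and 3 and replicates 1 and 3 of those groups for epg-2 (0.0775 to 0.12), and replicate 2 and replicates 1 and 3 for atg-13 (0.0573 to 0.165). For atg-5 they were replicates 2 and 3 of each group (0.0554 to 0.0986).

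The 4 ratios within a library were compared over the 4 pairwise contrasts, in 16 two-sided exact permutation tests added after the data were seen. With 3 libraries against 3 the smallest p such a test can give is 0.1, so no ratio could pass 0.05, and the smallest adjusted value was 0.2. The ratio of sqst-1 to lgg-1 per kilobase was 0.171 ± 0.00516 in the control libraries and 0.288 ± 0.0206 after atp-2 RNAi (SD, n = 3), a 1.68-fold difference without overlap (p = 0.1, exact permutation test). In the prp-19-labelled libraries it was 0.227 ± 0.044 without and 0.259 ± 0.019 with atp-2 RNAi (SD, n = 3), and those groups overlapped. The lgg-1 to lgg-2 ratio there was 7.35 ± 0.459 and 7.31 ± 0.318 (SD, n = 3), with overlap.

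Members whose groups did not overlap were counted as well. After atp-2 RNAi on the control vector, 6 members were higher and 10 lower in every library, beside 25.3% and 24.6% of all genes. In the prp-19-labelled libraries the counts were 1 higher and 8 lower, beside 12.9% and 11.6% of all genes. For the prp-19 label they were 5 higher and 6 lower without atp-2 RNAi, beside 31% and 29.2% of all genes, and 2 higher and 13 lower with it, beside 32.2% and 31.5%.

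hlh-30, the transcription factor of the set, was called in none of the 5 edgeR contrasts. It was at 116.6, 116.6 and 123.7 CPM in the control libraries and 112.0, 106.4 and 128.7 CPM after atp-2 RNAi. The prp-19-labelled libraries held 78.6, 104.7 and 121.4 CPM, and those labelled with both held 114.2, 94.9 and 114.9 CPM. In each of the 4 pairwise comparisons the groups overlapped, and the log2 fold changes ran from -0.23 (SE 0.131) for the prp-19 label without atp-2 RNAi to 0.13 (SE 0.184) for the interaction. Without replicate 3 of the prp-19-labelled libraries the former was -0.40 (adjusted p = 0.00655, edgeR), and with library totals alone it was 0.24 (adjusted p = 0.0469). It was -0.23 and called when genes of low counts were kept in the fit (adjusted p = 0.0267). The other members called in no contrast were vps-34 and epg-6. In at least 1 pairwise contrast 25 of 28 members were called, 89.3% beside 74.8% of all genes.

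Other genes of the pathway were taken from 6 lists holding 49 genes, of which 46 passed the filter. sqst-3, sqst-4 and egl-1 did not. Called genes numbered 8 higher and 10 lower for atp-2 RNAi on the control vector (39.1%) and 0 higher and 2 lower in the prp-19-labelled libraries (4.35%). The prp-19 label gave 12 higher and 24 lower without atp-2 RNAi (78.3%) and 7 higher and 22 lower with it (63.0%). The interaction was called for 5 higher and 7 lower (26.1%). Of all genes, 34.1%, 9.77%, 58.5%, 53% and 19.3% were called in the same contrasts. For the prp-19 label 30% were higher and 28.5% lower without atp-2 RNAi, and 26.5% were higher and 26.5% lower with it. Under library totals alone 41.9%, 7.37%, 69.8%, 51.4% and 31.3% of all genes were called. The counts in each list below are to be read beside these shares.

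The list of xpo-1, the nuclear export receptor of HLH-30, and 5 lysosomal lipases had the largest median changes of the 6 lists for 4 of the 5 contrasts. After atp-2 RNAi on the control vector 4 of 6 were lower and 0 higher (1 higher and 5 lower at an unadjusted p under 0.05, 0 higher and 4 lower with DESeq2), with a median log2 fold change of -0.79. For the prp-19 label without atp-2 RNAi 5 of 6 were lower and 1 higher, with a median of -1.57, and with atp-2 RNAi 4 were lower, with a median of -0.52. In the prp-19-labelled libraries, atp-2 RNAi gave 0 calls (2 higher and 1 lower at an unadjusted p under 0.05, 0 with DESeq2) and a median of 0.04. The interaction was called for 5 of 6, 4 higher and 1 lower, with a median of 1.05. Scaled by library totals alone these contrasts gave 1 higher and 3 lower, 1 and 5, 1 and 4, 0 and 0, and 4 and 1.

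lipl-3, a fasting-induced lipase, was at 20.3, 18.8 and 20.7 CPM in the control libraries and 4.93, 6.77 and 7.37 CPM after atp-2 RNAi. It was at 2.35, 2.36 and 3 CPM in the prp-19-labelled libraries and 3.32, 1.82 and 2.81 CPM in those labelled with both. Every other group lay below the controls, with log2 fold changes of -1.66 (SE 0.163) for atp-2 RNAi and -2.96 (SE 0.188) for the prp-19 label without it. lipl-4, a lipase known from long-lived germline-less worms, was at 6.22, 6.21 and 7.07 CPM in the control libraries and 4.24, 4.75 and 3.55 CPM after atp-2 RNAi. In the prp-19-labelled libraries it had 4, 3 and 0 counts, and in those labelled with both 2, 4 and 1. Its changes for the prp-19 label, -4.49 (SE 0.403) without and -3.85 (SE 0.421) with atp-2 RNAi on the log2 scale, rest on these few reads.

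lipl-1 and lipl-5, named after their values were seen, stood at higher levels. lipl-1 was at 161.2 ± 8.54 CPM in the controls, 66.2 ± 1.38 after atp-2 RNAi, 52.9 ± 3.3 in the prp-19-labelled libraries and 49.3 ± 0.517 in those labelled with both (SD, n = 3 each). For lipl-5 the means were 2040.6 ± 78.6, 1054.8 ± 31.2, 870.1 ± 138.7 and 1027.5 ± 41.1 CPM (SD, n = 3 each). Both were lower after atp-2 RNAi on the control vector (-1.28, SE 0.072, and -0.95, SE 0.0886), and their interactions were 1.18 (SE 0.104) and 1.19 (SE 0.125). The intestine, where vitellogenins are made, had markers that moved unequally. vit-2 held most of their summed level, which was 76363.5 to 99125 CPM in the control libraries and between 17676 and 57949.8 CPM over the other groups. Without vit-2 the other 4 summed to 1420.4 to 1650.3 CPM in the controls and 1159.2 to 1193.2 CPM after atp-2 RNAi. They summed to 1234.1 to 1474.8 CPM in the prp-19-labelled libraries and 1286.5 to 1369.7 CPM in those labelled with both. For the prp-19 label without atp-2 RNAi, vit-2 (-1.34) and ges-1 (-0.93) were called lower and ifb-2 (0.24) higher. The part of the intestine in the lipase values was not tested.

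**Figure D5:**
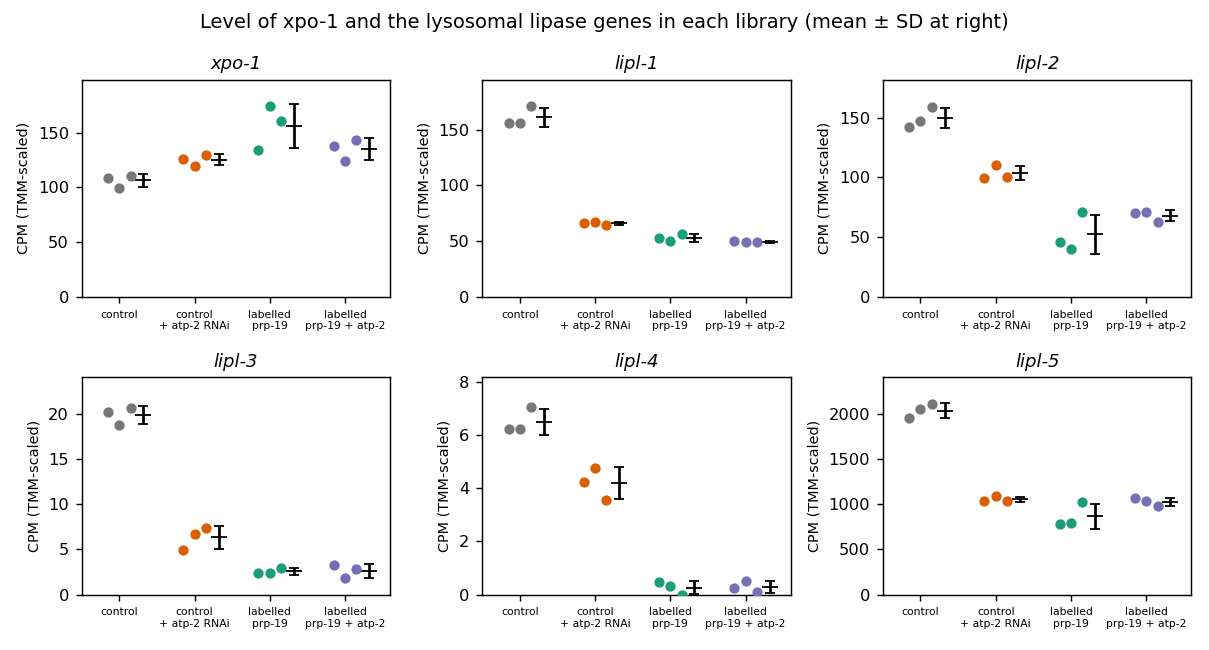
CPM of xpo-1 and lipl-1 to lipl-5 in every library, by group (3 libraries each, points) with the mean ± SD (black bar). For lipl-3 the control libraries lie at 18.8 to 20.7 CPM and the libraries of the other 3 groups at 1.82 to 7.37 CPM.

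Among 12 genes of TOR and AMPK signalling, which controls the UNC-51 complex, the prp-19 label without atp-2 RNAi gave 3 higher and 6 lower, and with it 2 higher and 5 lower. flcn-1, folliculin, was at 16.7 ± 1.6 CPM in the control libraries and 36.6 ± 9.83 CPM in the prp-19-labelled ones (SD, n = 3 each; log2 fold change 1.13, SE 0.169). let-363, the TOR kinase, was at 131.8 ± 19.4 and 67.9 ± 19.8 CPM (SD, n = 3 each; -0.96, SE 0.184). These 2 genes had the largest changes of the list. After atp-2 RNAi the list had 3 higher and 3 lower in the control libraries and 0 higher and 1 lower in the prp-19-labelled libraries. Library totals alone gave 7 higher and 1 lower for the prp-19 label, 3 and 3 with atp-2 RNAi added, 5 and 0 for atp-2 RNAi on the control vector, and 0 and 1 in the prp-19-labelled ones. flcn-1 (1.63) and let-363 (-0.50) kept their direction for the prp-19 label under it.

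Of 6 further transcription factors with reported autophagy roles, 1 was higher and 3 lower for the prp-19 label without atp-2 RNAi and 1 higher and 4 lower with it. pha-4, a FoxA factor, went from 11.3 ± 1.58 to 22 ± 4.07 CPM (SD, n = 3; 0.96, SE 0.146) without atp-2 RNAi. mxl-2, the Mlx-type partner of MML-1, went from 27.5 ± 0.358 to 14.5 ± 1.54 CPM (SD, n = 3; -0.92, SE 0.105) with it. With library totals alone the splits were 3 higher and 1 lower, and 1 and 3.

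In the list of 9 receptors and mitophagy genes, 7 were tested. The prp-19 label gave 2 higher and 5 lower without atp-2 RNAi, and 0 higher and 3 lower with it (0 higher and 4 lower at an unadjusted p under 0.05, 0 higher and 3 lower with DESeq2). dct-1, the BNIP3-type mitophagy receptor, went from 45.7 ± 1.42 to 23.2 ± 1.62 CPM and, with atp-2 RNAi, from 45 ± 4.48 to 20.9 ± 1.72 CPM (SD, n = 3 each). It fell by 0.98 (SE 0.0978) and 1.11 (SE 0.0966). pink-1, the kinase that marks damaged mitochondria, fell by 0.70 (SE 0.0926) and 0.83 (SE 0.0879). With library totals alone 2 were higher and 1 lower, and 0 and 3, and pink-1 was then at -0.22 (adjusted p = 0.0604, edgeR) without atp-2 RNAi.

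Of 11 genes for fusion with lysosomes, 5 were higher and 3 lower for the prp-19 label without atp-2 RNAi, and 4 higher and 5 lower with it, or 8 and 1 and 4 and 1 with library totals alone. rab-7, the late endosome GTPase, went from 124.4 ± 5.91 to 72.6 ± 3.22 CPM (SD, n = 3; -0.78, SE 0.0755) without atp-2 RNAi. syx-17, the autophagosomal SNARE, went from 21.5 ± 1.74 to 33.6 ± 3.11 CPM (SD, n = 3; 0.65, SE 0.119). Of 4 tested partners of the lipid kinase, 2 were lower in that contrast, vps-15 by a log2 fold change of -0.33 (SE 0.107) and mtm-3 by -0.30 (SE 0.0839). With library totals alone vps-15 was at 0.14 and mtm-3 at 0.18, and neither was called.

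Across the 28 members, the log2 fold change and the number of introns of the longest transcript had Spearman coefficients of -0.26 for the prp-19 label without atp-2 RNAi and 0.0 with it, and of -0.29 and -0.07 for the 2 atp-2 effects. The coefficients with exon length lay between -0.32 and 0.19 over the 5 contrasts. These are descriptions over genes that share libraries, and counts per gene do not measure splicing.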

How the data were processed

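The authors deposited 1 table of read counts per gene, whole numbers for 45132 genes in 12 libraries from polyA RNA, and no column of another sample was present (0). The submitters' processing notes name STAR 2.7.5c, HISAT2 2.1.0, R 4.0.5 and the builds ce11 and WBcel235; which program counted reads, on what annotation, and how strand and reads matching several places were handled is not given in the sources used. Nothing in the labels says that replicates came from separate cultures, so p-values measure the spread between these libraries, which may be technical. Titles gave each library's group and number.

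Counts were analysed in R 4.3.3 with edgeR 4.0.16: filterByExpr by group, TMM scaling, and glmQLFit with robust estimation over all 12 libraries (8 residual degrees of freedom, no replicate term). Contrasts were tested with glmQLFTest, adjusted over 12850 genes. SE is |log2 fold change|/sqrt(F), and 95% intervals use it with 8 degrees of freedom. Library totals alone, totals outside the vitellogenins, RLE factors, DESeq2 1.42.0, no filter, a replicate block, each library left out, and the 6 libraries compared alone were alternatives. The fit was run on simulated counts in which all groups shared the control profile apart from a small set of changed genes. That run cannot check the scaling between libraries of unlike composition. Exon lengths and introns came from the Ensembl annotation of WBcel235.

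The members and the 6 pathway lists were chosen with earlier results of these data known. Values in every library are given for lgg-1, lgg-2, bec-1, sqst-1 and hlh-30, and for members called for the interaction or called with at least a 1.5-fold change; in the other lists the 2 called genes with the largest changes are named.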

Additional observations from a re-analysis of the deposited data

Results flagged for a closer look

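The atp-2 effect differed by RNAi partner, in the test of the difference itself, for 4 of the 28 members. The effect in the prp-19-labelled libraries minus that in the control libraries was -0.55 for atg-7 (SE 0.129, adjusted p = 0.00487, edgeR) and -0.57 for sqst-1 (SE 0.155, adjusted p = 0.0156, edgeR). It was 0.48 for atg-3 (SE 0.134, adjusted p = 0.0164, edgeR) and -0.36 for lgg-2 (SE 0.111, adjusted p = 0.0296, edgeR). The share of members, 14.3%, was below the 19.3% of all genes. sqst-1 and atg-7 had risen after atp-2 RNAi on the control vector, whereas atg-3 had fallen there. For lgg-2 the change after atp-2 RNAi was called in the prp-19-labelled libraries, at -0.28 (SE 0.0784). The interactions of atg-7 and sqst-1 kept their call in each of 18 alternatives. That of atg-3 lost it in 4 and that of lgg-2 in 9. atp-2 mRNA itself had an interaction of 1.59 (SE 0.121), and its part in these differences was not tested.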

How the results depend on the processing

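Over the 68 gene results given, 42 of them called, the 19 alternatives gave 1282 values. Of these 1150 kept their side of the threshold, with their direction or, where uncalled, with either sign. A further 101 kept direction but lost the call, 22 gained it and 9 reversed. In all, 43 values of uncalled results changed sign, the reversals of hlh-30, lgg-1 and lgg-2 given below included. 13 called results kept their call in every alternative run. The reversals were for the prp-19 label without atp-2 RNAi. With library totals alone the log2 fold change was 0.04 for atg-3, 0.07 for atg-4.1, 0.18 for atg-9, 0.16 for epg-7, 0.24 for hlh-30, 0.41 for lgg-1, 0.40 for lgg-2 and 0.15 for unc-51, and with totals outside the vitellogenins it was 0.20 for lgg-1. These scalings shift all genes together, with medians of 0.55 and 0.34. Counts of called members for the atp-2 effect in the prp-19-labelled libraries were 5 with totals outside the vitellogenins and 0 in a fit of the 6 libraries compared alone. Of all genes, 9.98% and 4.38% were called there. With library totals alone the counts were 7 for the prp-19 label with atp-2 RNAi and 13 for the interaction, beside 51.4% and 31.3% of all genes. The cause was not tested beyond the shift of all genes.

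Leaving out each library in turn gave 8 to 11 members for atp-2 RNAi on the control vector, beside 27.5% to 38.4% of all genes. In the prp-19-labelled libraries it gave 0 to 8, beside 5.31% to 22% of all genes. The prp-19 label gave 11 to 17 members without atp-2 RNAi, beside 51.9% to 59.8%, and 8 to 13 with it, beside 46.4% to 56.1%. For the interaction 2 to 5 members were called, beside 14.9% to 27.3% of all genes. Replicate numbers showed no clear pairing of the libraries. The 18 same-numbered pairs had correlations of deviations from -0.11 to 0.12, 1 of them over 0.1, and the 36 other pairs from -0.11 to 0.14. By these correlations 6 of 12 libraries were closest to their own number. With the replicate block the counts were 9, 3, 15, 12 and 4, against 9, 3, 14, 12 and 4 without it. Of all genes, 33.3%, 8.86%, 58%, 52.4% and 17.9% were called with it, against 34.1%, 9.77%, 58.5%, 53% and 19.3%. Depth limits atg-10 (154 counts in all) and lgg-3 (649 counts).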
